A study of Homo sapiens with 12 samples.

Results

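The 54 genes described here encode the machinery that moves new proteins into the endoplasmic reticulum (ER), trims and glycosylates them there, and ships them to the Golgi. They were listed by name and role, with no rule on measured values, out of the 60675 gene rows in each file. HSC-3, an established human cell line from a squamous carcinoma of the tongue, gave 12 RNA libraries, with 4 in each of 3 groups. Cells were left untreated, or exposed for 3 hours to cyclopiazonic acid (CPA) at 25 µM, either alone or together with synta-66, whose dose the sources used here do not state. CPA stops SERCA, the pump that loads calcium into the ER, and synta-66 inhibits the ORAI channels that open when that store is empty. Synta-66 without CPA was not analysed here. All libraries come from 1 cell line, and since nothing in the labels ties the 4 libraries of a group to separate cultures, p-values reflect only the spread among these libraries, which may be technical.

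The signal recognition particle (SRP) brings a ribosome that is making a secreted or membrane protein to its receptor on the ER. The protein is then threaded through the SEC61 channel, its signal peptide is cut off by signal peptidase, and the oligosaccharyltransferase attaches a sugar tree to it. COPII coats carry cargo from the ER to the Golgi, COPI coats return escaped proteins, and cargo and KDEL receptors choose what travels each way. Many of these genes are known targets of the unfolded protein response, in which XBP1 and ATF6 raise ER capacity when unfolded proteins build up.

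Each gene was read in 2 ways. Its own row is the count deposited under its gene ID. The opposite feature is the annotated row with the most reads whose exons overlap the gene's exons by at least 30 bases on the other strand and those of no other coding gene (GENCODE 44, GRCh38). A reading was tested when 2 or more of a group's 4 libraries held 5 reads or more. Of the 54 genes, 19 had such a feature and 15 were readable there. At their own rows 43 were tested, 11 of them also at the opposite feature. Neither reading was tested for SSR2, SPCS2, SEC11C, OSTC, DAD1, SEC24B and ARCN1, whose own rows averaged between 0.333 and 2.17 reads per library. Of the 15 readable genes, 12 had more reads at the opposite feature than at their own row. RPN2 averaged 10.5 reads of its own and 1201 at MROH8, and SPCS3 averaged 34.1 against 1252 at SPCS3-AS1. SSR4, SPCS1 and COPA went the other way.

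**Figure D1:**
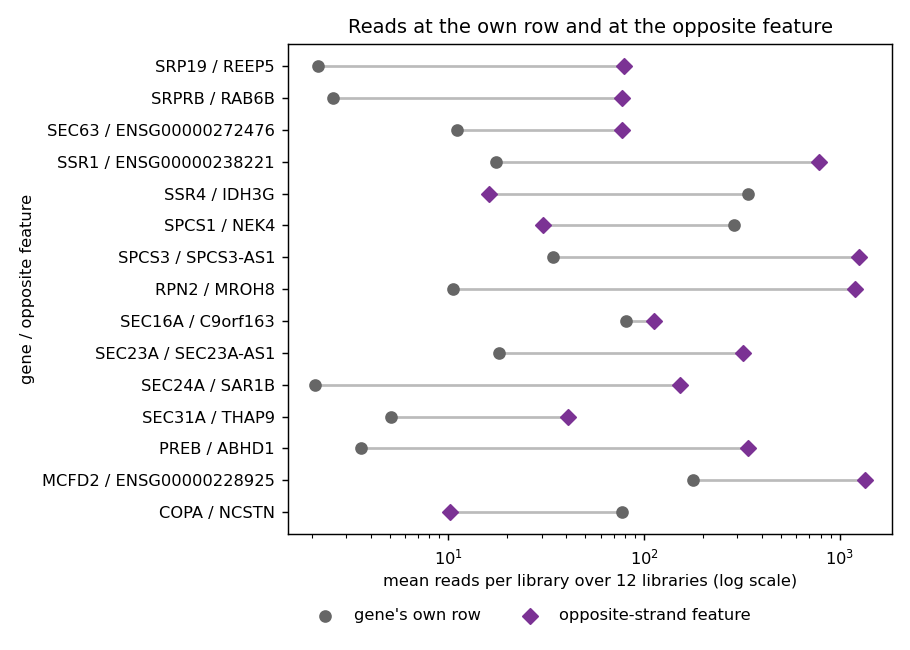
Mean reads per library over 12 libraries (log axis) at each readable gene's own row (grey circles) and at its opposite feature (purple diamonds), with the feature named after the slash. The diamond lies to the right of the circle for 12 of 15 genes, with the pair closest for SEC16A (80.5 and 113 reads).

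The transcript of an opposite feature cannot be told apart from that of the gene it faces. The files were counted for 1 strand, no source used here names the kit, and whether the counted strand is that of the RNA was not tested, so an own row and an opposite feature are named here by annotation alone. The feature was a noncoding gene for 6 of the 15 (SEC63, SSR1, SPCS3, SEC16A, SEC23A and MCFD2) and another coding gene for 9. SEC24A is read at the row of SAR1B, which faces it across 389 bases, so the own row of SAR1B and the reading of SEC24A are the same numbers. Of the 43 own rows tested, 33 face no coding exon and had a median of 13.3 reads (2.67 to 105), while the 10 that face one (SEC61A1, SSR4, SPCS1, RPN2, SEC31A, SAR1B, KDELR3, MCFD2, COPA and COPB2) had a median of 165 reads (5.08 to 643). Apart from such read counts and the marker sums below, no absolute levels are compared between genes.

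The libraries held 2819486 to 5458858 reads assigned to genes, 3.58% to 9.4% of uniquely aligned reads. In untreated replicate 3 and CPA with synta-66 replicates 1 and 4 the 2 mitochondrial ribosomal RNAs took 39.6% to 53.5% of gene reads, against 0.165% to 11.8% in the other 9 libraries. Without these 3 libraries, 2, 0 and 4 of the 15 genes were called at the opposite feature for CPA against untreated, CPA with synta-66 against CPA, and CPA with synta-66 against untreated, where all 12 libraries gave 1, 0 and 4. At own rows the counts were 0, 3 and 4 without them and 0, 3 and 3 with them. The call added in the last comparison was a fall, of SEC24C (-1.99, adjusted p = 0.026). Markers of oral squamous epithelium were all tested at their own rows (10 of 10), with summed levels between 7036 and 8703 CPM (counts scaled to a library size of 1e+06). KRT8, which faces KRT18, gave nearly all of that sum, with 30486 reads per library where the other 9 averaged 2.5 (TP63) to 153 (KRT18). Fibroblast markers were at most 1.04 CPM in sum at their own rows, with 4 of 6 at 0 in every library. Immune and endothelial markers stayed between 2.18 and 9 CPM in sum.

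Promoter sequence was examined because the unfolded protein response acts through short DNA elements. RefSeq start-site windows (GRCh38.p14, 250 bases before to 50 after a start, 1 or more per gene) were matched by symbol for 48 of the 54 genes. They were searched on both strands for the UPRE core bound by XBP1 and ATF6 (TGACGTGG) and for the ER stress elements ERSE (CCAAT and CCACG with 9 bases between) and ERSE-II (ATTGG and CCACG with 1 base between). All 3 hold the letters CCACG on one strand. The UPRE core was found in 11 of the 48 genes (22.9%), against 253 of 27305 genes with a window (0.927%) and 6 of 132 matched genes of the wider list described at the end (4.55%). By window the shares were 12 of 64 (18.8%) and 0.729% of 35116. ERSE and ERSE-II matched none of the 48 and 1 and 0 of the 132, and matched 0.0916% and 0.0696% of all genes. A match is a string of letters and not evidence of binding. Below are 28-base stretches of the 6 genes with a match that were also readable at an opposite feature, on the gene's strand, with the core or its reverse complement in capitals.
SEC16A: ggccctggtgCCACGTCAgccggactga
SRP19: agtcttcatgCCACGTCAgagactagag
SEC24A: tgagagtcggTGACGTGGcggcgaggcc
SEC23A: cccctcctctTGACGTGGcagaggcggc
SSR4: cagggaggggCCACGTCAgtgctgccag
COPA: agagggtcgcTGACGTGGaggcgtccga
The stretch of SEC16A is chr9:136484708-136484735 on the minus strand, just inside the RefSeq start at 136484740. Those of SRP19 (chr5:112861165-112861192), SEC24A (chr5:134648596-134648623) and SSR4 (chrX:153794529-153794556) are on the plus strand, and those of SEC23A (chr14:39103222-39103249) and COPA (chr1:160343228-160343255) on the minus strand. The other 5 genes with a match were COPB1, COPB2, KDELR3, SEC62 and SSR3.

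The comparison of CPA with untreated cells asks how the RNA of this machinery differed after CPA. Neither store calcium nor ORAI activity was read in these RNA counts. SEC16A was the 1 readable gene called, higher with CPA. PREB had an adjusted p under the threshold but a change just under the fold minimum, and the remaining 13 were not called either. A call required an adjusted p under 0.05 (edgeR quasi-likelihood, Benjamini-Hochberg over 14911 features) and a change of at least 1.5-fold. By this rule 1 of 15 genes rose and 0 fell at opposite features, where 3.44% of 3956 genes read in this way rose and 1.31% fell. The median log2 fold change of the 15 was 0.23, and that of all 3956 was 0.03. At own rows 0 of 43 were called in either direction, and 0 by DESeq2, against 1.57% that rose and 0.929% that fell among the own rows of 8937 coding genes. Their medians were -0.12 and -0.02.

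SEC16A organizes the ER exit sites where COPII coats assemble. It was read at the noncoding gene C9orf163 (ENSG00000196366, chromosome 9, 136483495 to 136486067), which overlaps 250 bases of untranslated exon at the 5′ end of SEC16A (136440096 to 136483759, the other strand). Reads there were 10.4, 11.8, 15.3 and 18.2 CPM in the untreated libraries, 22.7, 36.3, 30.5 and 32.2 CPM with CPA, and 35.7, 48.7, 42 and 50.5 CPM with CPA and synta-66. Every library of both treated groups was above every untreated library, while CPA replicate 2, at 36.3 CPM, was above the lowest library with synta-66. The log2 fold change for CPA against untreated was 1.15 ± 0.19 (SE, adjusted p = 5.43e-05). The 2573-base feature also reaches beyond the annotated end of SEC16A, over the RefSeq start and the UPRE core shown above.

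PREB, the membrane protein known as SEC12 that loads SAR1 with GTP to begin a COPII coat, was read at ABHD1 (ENSG00000143994, chromosome 2, 27123789 to 27130812), which overlaps the last 57 bases of its 3′ untranslated region. ABHD1 has 4630 exon bases, so nearly all of this feature lies outside PREB. Under an overlap rule of at least 100 bases PREB had no qualifying feature. The untreated libraries had 68.9, 67.8, 67.8 and 42.2 CPM and the CPA libraries 99.4, 86, 87.4 and 92.8 CPM, with no overlap between the groups. The log2 fold change was 0.56 ± 0.13 (adjusted p = 0.00361), below the fold minimum of 0.58 on this scale. It was 0.42 without untreated replicate 4, the low one of its group, and passed the minimum without untreated replicate 1 (0.62), 2 (0.61) or 3 (0.60) or without CPA replicate 2 (0.59) or 3 (0.59), and without the 3 libraries rich in mitochondrial ribosomal RNA (0.61).

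Among the other COPII genes, SEC23A and SEC24A, inner coat proteins that bind SAR1 and cargo, and SEC31A of the outer coat had log2 fold changes of 0.09, 0.23 and -0.09. The 95% interval for SEC23A, read at SEC23A-AS1 with 73 to 96.6 CPM in all 12 libraries, ran from -0.14 to 0.32, so a change of 1.5-fold in either direction lies outside it. The intervals for SEC24A (-0.11 to 0.56) and for SEC31A (-0.67 to 0.48) were wider, and that of SEC31A includes 1.5-fold lower.

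Of the genes of targeting, SRP19 and SRPRB had log2 fold changes of 0.41 and 0.46, and SPCS1 of the signal peptidase had -0.40, none of them called. SPCS3, a signal peptidase subunit, read at SPCS3-AS1 (ENSG00000248980, chromosome 4, 176308268 to 176320458), went from 249.8, 294, 286 and 253 CPM in untreated libraries to 326, 298, 339 and 341 CPM with CPA. The groups did not overlap, and the log2 fold change of 0.27 ± 0.08 had an adjusted p of 0.042 but was below the fold minimum. RPN2, an oligosaccharyltransferase subunit read at MROH8, had 253 to 295 CPM untreated and 279.7 to 316 CPM with CPA, and its log2 fold change of 0.10 ± 0.08 was not called.

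**Figure D2:**
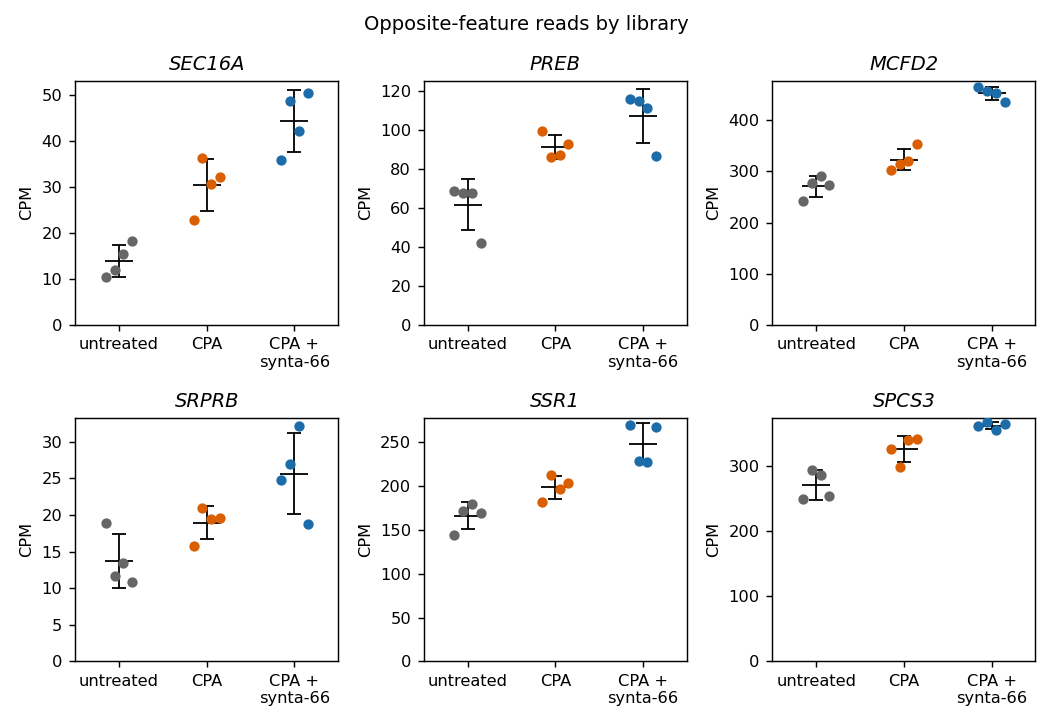
CPM at the opposite feature of SEC16A, PREB, MCFD2, SRPRB, SSR1 and SPCS3 in each library (points) with the group mean and SD (black, n = 4). Group means are highest with CPA and synta-66 in all 6 panels, and for SEC16A they were 13.9, 30.4 and 44.2 CPM.

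The comparison of CPA with synta-66 against CPA alone asks what differed when the ORAI inhibitor was added to CPA. At opposite features 0 of 15 genes were called, and 0 by DESeq2, against 2.7% that rose and 4.37% that fell among the 3956 genes. The differences of 13 of the 15 were above 0, with a median log2 fold change of 0.20 against 0.00 for all genes read in this way. This comparison shares its CPA libraries with the preceding one. At own rows 3 of 43 were called, LMAN1 higher and SEC16A and DDOST lower, against 1.76% that rose and 2.72% that fell among coding genes' own rows, with a median of 0.20 against -0.02.

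MCFD2, which with the lectin LMAN1 forms the receptor that carries coagulation factors V and VIII out of the ER, had the smallest adjusted p of the 15. Read at the noncoding ENSG00000228925 (chromosome 2, 46899275 to 46908678, overlap 441 bases), it had 304, 315, 321 and 353 CPM with CPA and 466, 457, 454 and 436 CPM with CPA and synta-66. All 4 libraries with synta-66 were above all 4 with CPA alone, and the log2 fold change was 0.49 ± 0.08 (adjusted p = 2.02e-05), under the fold minimum. A second qualifying feature of MCFD2 with fewer reads, TTC7A, had 37.4 ± 6.91 and 37.4 ± 10.8 CPM (SD, n = 4) in the same groups (adjusted p = 0.996). The own row of MCFD2, which faces TTC7A, also was not called (-0.22 ± 0.14, adjusted p = 0.457). Of the 3 readings of MCFD2, 1 had an adjusted p under the threshold, and the differences between readings were not tested.

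SSR1, a subunit of the translocon-associated TRAP complex, was read at the noncoding ENSG00000238221 (chromosome 6, 7276031 to 7298872, overlap 151 bases). Its libraries had 182, 212, 196 and 204 CPM with CPA and 269.8, 229, 227 and 267 CPM with CPA and synta-66, with no overlap. The log2 fold change of 0.32 ± 0.09 (adjusted p = 0.0234) was under the fold minimum. The 2 highest values came from the 2 libraries of this group rich in mitochondrial ribosomal RNA, and without the 3 such libraries the change was 0.17 (adjusted p = 0.487). SEC16A at C9orf163 had a log2 fold change of 0.54 ± 0.18 (adjusted p = 0.0577), and it passed on leaving out either CPA replicate 2 (0.63, adjusted p = 0.0437) or, of those with synta-66, replicate 1 (0.62, adjusted p = 0.04). SPCS1, another signal peptidase subunit, had the highest value of the 15, at 0.78 ± 0.34 (adjusted p = 0.191), on a mean of 30.4 reads at NEK4.

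The own row of SEC16A fell, where its opposite feature had a log2 fold change above 0. It had 27.1, 32.3, 25.2 and 27 CPM with CPA and 9.33, 12.4, 8.84 and 17.8 CPM with CPA and synta-66, a log2 fold change of -1.22 ± 0.22 (adjusted p = 0.00011), and the untreated libraries lay between the treated groups at 18.2 to 20.4 CPM. Against untreated, the change of -0.71 ± 0.22 missed the threshold (adjusted p = 0.0652) and was called by DESeq2 (0.0312), after the filterByExpr filter (0.0492) and without CPA with synta-66 replicate 4 (-0.92, adjusted p = 0.0127). This row faces no coding exon. The log2 ratio of C9orf163 reads to SEC16A reads per library was -0.52 ± 0.36 untreated, 0.11 ± 0.25 with CPA and 1.91 ± 0.31 with CPA and synta-66 (SD, n = 4). The same ratio for SPCS3 went the other way, at 5.88 ± 0.50, 5.55 ± 0.70 and 4.65 ± 0.61. These ratios were taken after the values of both genes had been seen, and they are given as a description. In exact permutation tests over libraries, none of 6 differences between groups passed (Benjamini-Hochberg adjusted p of 0.0571 or more). With 4 libraries in each group the smallest possible unadjusted p of this test was 0.0286. SEC16A with synta-66 against CPA and against untreated, and SPCS3 with synta-66 against untreated, were at that floor. Larger differences there could not have lowered the adjusted p of 0.0571, so the tests do not decide on them. For SEC16A the ratios with synta-66 (1.50 to 2.25) were all above those with CPA (-0.25 to 0.28).

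LMAN1, also called ERGIC-53, had few reads at its own row (chromosome 18) and no opposite feature. The libraries had 1.25, 1, 1.56 and 2.34 CPM untreated, 0.258, 0.233, 2.66 and 2.37 CPM with CPA, and 11.8, 7.88, 9.09 and 3.92 CPM with CPA and synta-66. Every library with synta-66 was above every other library, although these values rest on 1 to 37 reads. The log2 fold change was 2.5 ± 0.58 against CPA (adjusted p = 0.00302) and 2.42 ± 0.58 against untreated (adjusted p = 0.00708). DDOST, an oligosaccharyltransferase subunit, fell from 8.52, 10.9, 4.71 and 4.32 CPM with CPA to 2.84, 2.48, 2.46 and 0 CPM (-1.79 ± 0.52, adjusted p = 0.0235). The call for DDOST ended without CPA replicate 1 (adjusted p = 0.0659) or 2 (0.129), without CPA with synta-66 replicate 4 (0.0694), and without the 3 libraries rich in mitochondrial ribosomal RNA (0.107). SEC24C, a cargo-binding COPII protein with few reads of its own, had -1.27 (adjusted p = 0.058). A call of lower arose on leaving out CPA with synta-66 replicate 1 (-2.01, adjusted p = 0.00256), untreated replicate 4 (-1.28, adjusted p = 0.0492) or those 3 libraries (-2.40, adjusted p = 0.00146). Without those 3 libraries SEC24C was also called lower with CPA and synta-66 against untreated (-1.99, adjusted p = 0.026).

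**Figure D3:**
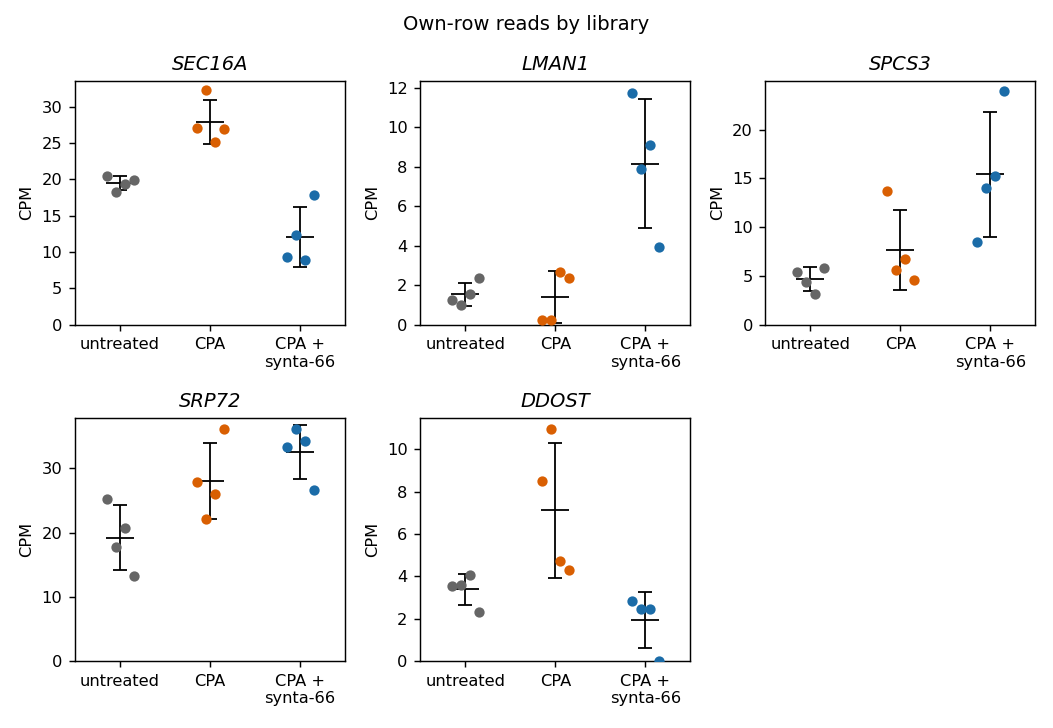
CPM at the own rows of SEC16A, LMAN1, SPCS3, SRP72 and DDOST in each library (points) with the group mean and SD (black, n = 4). With CPA and synta-66 the mean of SEC16A was the lowest of its groups, at 12.1 CPM, while LMAN1 was highest in that group, at 8.16 CPM.

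The comparison of CPA with synta-66 against untreated cells gives the difference from baseline with both compounds present. It shares libraries with both preceding comparisons. Of the 15 genes read at opposite features 4 rose (26.7%), SEC16A, SRPRB, PREB and MCFD2, and 0 fell, where 2.88% of 3956 genes rose and 1.29% fell. The log2 fold change was above 0 for 13 of 15, with a median of 0.42, and for 2052 of the 3956, with a median of 0.01. Since the genes were listed with earlier results of these data known, these counts are given as a description. At own rows 3 of 43 rose (6.98%), LMAN1, SPCS3 and SRP72, and 0 fell, against 1.7% that rose and 1.26% that fell among coding genes' own rows.

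SEC16A had the largest change of the 15, 1.69 ± 0.19 (adjusted p = 1.86e-08). PREB had 116, 115, 112 and 86.6 CPM with CPA and synta-66, all above the untreated libraries, and a log2 fold change of 0.80 ± 0.13 (adjusted p = 2.56e-05). MCFD2, at 243, 277, 290.4 and 274 CPM untreated, rose by 0.74 ± 0.08 (adjusted p = 3.3e-09). These 3 calls held with each library left out in turn. For MCFD2 the call was made at the feature with most reads and not at its other readings. At TTC7A, means were 39.3 CPM untreated and 37.4 CPM with CPA and synta-66 (-0.06 ± 0.18, adjusted p = 0.936). The own row of MCFD2 was not called and had means of 43.4 and 42.6 CPM in the same groups.

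SRPRB anchors the SRP receptor in the ER membrane and was read at the coding gene RAB6B (ENSG00000154917, chromosome 3, 133824235 to 133895882), whose exons overlap 381 bases of its 3′ untranslated region. RAB6B has 6055 exon bases, so most of this feature lies outside SRPRB. The libraries had 18.9, 11.6, 13.4 and 10.8 CPM untreated, 15.7, 20.9, 19.4 and 19.6 CPM with CPA, and 24.7, 27, 32.2 and 18.7 CPM with CPA and synta-66. The lowest library with synta-66 was just under the highest untreated one. The log2 fold change was 0.91 ± 0.22 (adjusted p = 0.00786), and the call ended without CPA with synta-66 replicate 3 (0.78, adjusted p = 0.0658). SRP19, which helps SRP54 bind the RNA of the particle, was read at REEP5 and had 18.3, 13.6, 15.6 and 14.6 CPM untreated and 41.8, 19.4, 23.8 and 18.7 CPM with CPA and synta-66. These groups did not overlap, but 1 library was far above the rest, and the log2 fold change of 0.72 ± 0.24 was not called (adjusted p = 0.0844).

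SSR1 came to 0.58 ± 0.09 (adjusted p = 2.66e-05), against untreated levels of 144, 172, 179.7 and 169 CPM, and lay at the edge of the fold minimum. It was 0.47 (adjusted p = 0.0123) without the 3 libraries rich in mitochondrial ribosomal RNA, and at the lowest 0.51 with 1 library left out, untreated replicate 1. It was called with DESeq2 (0.59) and with RLE (0.59) or upper-quartile scaling (0.61), in a fit of the 2 groups alone (0.59), and without untreated replicate 2 (0.59) or 3 (0.62), CPA replicate 1 (0.59), or replicates 2 (0.62) or 3 (0.62) of those with synta-66. SPCS3 at its opposite feature had 361, 368, 355 and 364 CPM with CPA and synta-66, above all other libraries, with a log2 fold change of 0.42 ± 0.08 (adjusted p = 0.000444). Its own row rose from 5.41, 4.4, 3.13 and 5.86 CPM untreated to 8.52, 14, 15.2 and 23.9 CPM (1.69 ± 0.36, adjusted p = 0.00156). SPCS3 was thus higher at both readings, with a larger fold at the row of few reads. Against CPA alone this row had 1.02 ± 0.34 (adjusted p = 0.0589) and was called without CPA replicate 1 (1.44, adjusted p = 0.00808), replicate 1 with synta-66 (1.20, adjusted p = 0.027) or untreated replicate 4 (1.02, adjusted p = 0.0454). With no library of either group left out, it was called with upper-quartile scaling (adjusted p = 0.0485) or no read filter (0.0498). A fit of the 2 groups alone also called it (0.0438).

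SRP72, a protein of the signal recognition particle with 105 reads per library at its own row, had 25.2, 17.8, 20.6 and 13.2 CPM untreated, 27.9, 22.1, 26 and 36 CPM with CPA, and 33.3, 36, 34.2 and 26.5 CPM with CPA and synta-66. The libraries with synta-66 were all above the untreated ones (0.76 ± 0.20, adjusted p = 0.0143). The call ended without untreated replicate 2 (adjusted p = 0.0575) or 4 (0.0638) or CPA with synta-66 replicate 2 (0.0605).

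**Figure D4:**
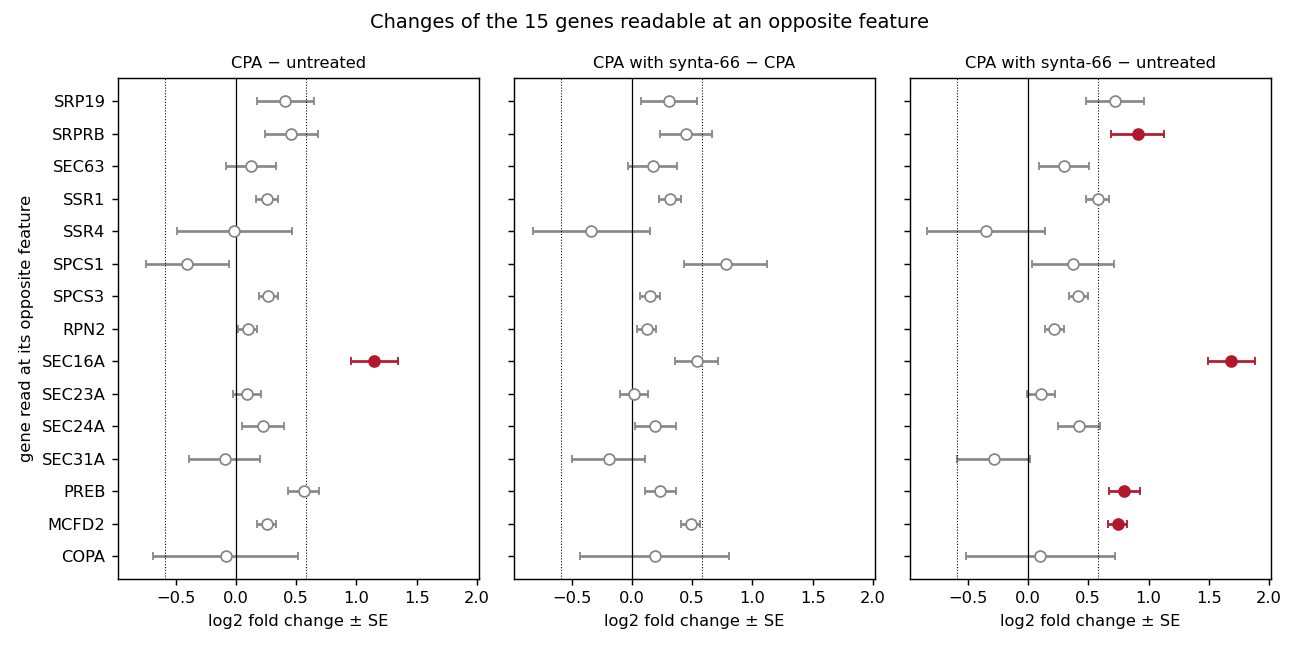
Log2 fold changes with SE at the opposite features of the 15 readable genes in 3 comparisons. Filled red points passed adjusted p under 0.05 and 1.5-fold (dotted lines), which were 1, 0 and 4 genes from left to right, and SEC16A was the highest in the outer panels.

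By role, the 4 rises at opposite features from untreated to CPA with synta-66 were 1 of 2 readable genes of the targeting step, 2 of 5 of the COPII coat and its regulators, and the 1 readable cargo receptor. That receptor, MCFD2, was not called at TTC7A or at its own row in this comparison. None of 3 readable translocon genes, 2 of signal peptidase, 1 of the oligosaccharyltransferase and 1 of the COPI coat was called. Of all 3956 genes read in this way 2.88% rose, so 0 calls among so few genes do not set these roles apart. The COPI coat was read mostly at own rows, where 0 of 6 genes were called in any comparison. Over the 3 comparisons, 1.57% to 1.76% of coding genes' own rows rose and 0.929% to 2.72% fell. COPB2, the most deeply counted with 643 reads per library, had a mean of 167 ± 15.7 CPM untreated, 156 ± 19.5 CPM with CPA and 167 ± 15.6 CPM with CPA and synta-66 (SD, n = 4). The 95% interval of its log2 fold change from untreated to CPA with synta-66 ran from -0.20 to 0.20. COPB2 faces MRPS22, so this row may hold reads of either gene. KDELR3, a receptor that returns KDEL-tagged chaperones to the ER, faces the coding gene DDX17 and had 48.6 ± 13, 48.7 ± 6.14 and 48 ± 6.5 CPM in the same order. SSR4, which faces IDH3G, had 84.3 ± 3.15, 84.2 ± 15.8 and 91.3 ± 9.71 CPM.

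For SEC61A1, which forms the channel, and for SEC24C the opposite feature with most reads also overlapped another coding gene, so neither was readable by the rule. The feature over SEC61A1 and EEFSEC is RUVBL1, with 431 ± 28.1 CPM untreated, 456 ± 26.8 CPM with CPA and 599.8 ± 17.2 CPM with CPA and synta-66 (SD, n = 4). Its log2 fold change was 0.40 ± 0.07 against CPA (adjusted p = 0.000229). The feature over SEC24C and FUT11 had 1681 ± 43.7, 1872 ± 76.2 and 2183 ± 119 CPM, with 0.22 ± 0.06 against CPA (adjusted p = 0.0255). Both were under the fold minimum, and which gene's reads they hold cannot be told apart. Shared features of COPB2 (MRPS22) and SPCS1 (GLT8D1) had -0.27 (adjusted p = 0.564) and -0.09 (adjusted p = 0.807) against CPA. The own row of SEC61A1, which faces RUVBL1, was not called in any comparison and had a log2 fold change of -0.41 ± 0.21 from untreated to CPA with synta-66 (adjusted p = 0.376).

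A wider list of 158 other genes of ER insertion, glycosylation and early transport was read in the same ways, 53 of them at opposite features and 99 at own rows. At opposite features 1 rose with CPA, 1 fell with CPA and synta-66 against CPA, and 7 rose with CPA and synta-66 against untreated. These were 1.89%, 1.89% and 13.2% of 53, where 3.44% of all genes read in this way rose, 4.37% fell and 2.88% rose in the same comparisons. The median log2 fold change of the list in the last was 0.23. Of the 7 rises, 4 of 16 tested were in glycosylation, 3 of 25 in transport and 0 of 12 in insertion. RAB1A, the GTPase that tethers ER-derived vesicles to the Golgi, was read at CEP68 and went from 51.1 to 87.9 CPM with CPA (0.78 ± 0.12, adjusted p = 1.91e-05) and to 90.5 CPM with synta-66 added. MGAT2, a Golgi enzyme that branches N-glycans, was read at the noncoding ENSG00000258377 and went from 1749 CPM untreated to 3029 CPM with CPA and synta-66 (0.79 ± 0.07, adjusted p = 6.98e-12). PGM3, which makes a precursor of UDP-GlcNAc, rose from 294.9 to 482 CPM at DOP1A (0.71 ± 0.08), and MIA3 (TANGO1), which exports collagen through COPII sites with SEC16A, rose from 116 to 186 CPM at ENSG00000272750 (0.69 ± 0.10). TMEM258, an oligosaccharyltransferase subunit, rose by 0.80 ± 0.16 at MYRF, and TMED5, a cargo adaptor of the p24 family, by 0.69 ± 0.08 at CCDC18, though by 0.56, under the fold minimum, without the 3 libraries rich in mitochondrial ribosomal RNA.

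At own rows of the wider list, 0 of 99 rose and 2 fell with CPA (2.02%), SIL1 and DHDDS, where 0.929% of coding genes' own rows fell. DHDDS, which builds the dolichol carrier of N-glycosylation, fell from 11.7 to 3.57 CPM (-1.69 ± 0.38, adjusted p = 0.00356) and faces no coding exon. SIL1, a nucleotide exchange factor for the chaperone BiP, fell from 17 to 7.98 CPM (-1.10 ± 0.29, adjusted p = 0.0144), but was not called without CPA replicate 3 (0.0712). With synta-66 added to CPA, PMM2 (0.74 ± 0.16), an enzyme that supplies mannose for glycans, and TMED5 (0.74 ± 0.20) rose and TRAM2 (-0.77 ± 0.22) fell, 3.03% of 99 in all, where 1.76% of coding genes' own rows rose and 2.72% fell. The call for TMED5 ended without the 3 libraries rich in mitochondrial ribosomal RNA (adjusted p = 0.0854). The call for TRAM2, a translocon-associated protein, ended without those 3 libraries (adjusted p = 0.135) and without any of CPA replicates 1, 2 and 3 and of replicates 2 and 4 with synta-66. From untreated to CPA with synta-66, TRAPPC13 (0.77 ± 0.20) rose and YIF1B (-1.08 ± 0.24) and SIL1 (-1.03 ± 0.29) fell, again 3.03%, where 1.7% rose and 1.26% fell. The call for TRAPPC13 ended without untreated replicates 1 or 2 or CPA with synta-66 replicate 1, and that for SIL1 without untreated replicates 1, 2 or 4, and without replicates 1 or 2 of CPA with synta-66. Both also ended without the 3 libraries rich in mitochondrial ribosomal RNA (adjusted p = 0.448 and 0.123).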

How the data were processed

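The deposited files hold raw counts per gene for 12 libraries. Per the labels' protocols, the authors checked reads with FastQC 0.11.5, trimmed them with Trimmomatic 0.32 (0.36 in the submitters' processing notes), aligned them with STAR 2.5.2a to GRCh38 (Ensembl 84) and counted with HTSeq 0.6.1p1, run for a stranded library. No source used here names the kit. The 5 closing rows, which name no gene, entered neither library sizes nor tests.

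edgeR 4.0.16 (R 4.3.3) fitted all 12 libraries at once, by group alone, with TMM scaling and quasi-likelihood tests, after the read filter that the study itself applied. Adjustment ran over 14911 features. CPM uses TMM-scaled library sizes. Simulated for CPA against untreated over 14911 genes, the steps called 6 of 50 genes at 1.5-fold, 21 at 2-fold, 33 at 4-fold and 41 at 8-fold, and 2 unchanged genes. For CPA with synta-66 these were 5, 18, 27 and 40, with 3 unchanged, against CPA, and 6, 17, 28 and 43, with 4 unchanged, against untreated. A call needed an estimated change of at least 1.5-fold, which by itself limits calls at a true 1.5-fold. The changed genes were drawn from all tested features averaging 5 reads or more, so these counts are not specific to the depth of the members' readings.

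The members, lists and the opposite-feature rule were chosen with earlier results of these data known. Named are called members averaging 1 CPM or more and, of the wider list, up to the 6 largest called effects per direction, comparison and reading. SEC61A1, SEC24C, COPB2 and SPCS1 at shared features, the TTC7A reading of MCFD2, and members given for levels or errors were added after their values were seen. The 1 fall of the wider list at opposite features is counted but not reported further here. With counts scaled by total gene reads alone, no 2 libraries of a group agreed within counting noise (chi-square per gene at least 5.26). This measure also takes in differences in mitochondrial ribosomal RNA. It was 9.24 between CPA with synta-66 replicates 1 and 4, both rich in that RNA, and 421 between replicates 1 and 2. Alternatives were DESeq2 1.42.0, other scalings, filters, call rules, samples, overlap rules, a replicate block and leaving out libraries.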

Additional observations from a re-analysis of the deposited data

Results flagged for a closer look

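In 3 of 33 groups of 4 libraries examined (11 readings with an adjusted p under 0.05, 3 groups each) 1 library stood apart from the other 3 by more than Dixon's critical value, and chance gives about 1 in 20. PREB at its opposite feature had 42.2 CPM in untreated replicate 4, where the others had 67.8 to 68.9 CPM. It had 86.6 CPM in CPA with synta-66 replicate 4, where the others had 112 to 116 CPM. DDOST at its own row had 0 CPM in CPA with synta-66 replicate 4, where the others had 2.46 to 2.84 CPM.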

How the results depend on the processing

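Counts of called genes are given for CPA against untreated, CPA with synta-66 against CPA, and CPA with synta-66 against untreated, in that order. For the 15 genes at opposite features (1, 0 and 4 called), dropping the fold minimum gave 3 and 2 in the first and second comparison. A test against a 1.5-fold change gave 0 in the first and 1 in the last, where noncoding features only gave 2. Leaving out each library gave 1 to 2, 0 to 1 and 4 to 5. At own rows (0, 3 and 3 called), the test against 1.5-fold gave 1 and 1 in the second and the last comparison, and leaving out each library gave 2 to 5 in the second. For the wider list at opposite features (1, 1 and 7 called), no fold minimum gave 5, 11 and 11, the test against 1.5-fold gave 0, 0 and 0, noncoding features only gave 0, 0 and 3, and leaving out each library gave 1 to 2, 0 to 3 and 7 to 8. Its second comparison gave 3 with DESeq2, upper-quartile scaling or filterByExpr, 2 with RLE scaling, no filter, only 2 groups in the fit or the largest overlap, and 0 with summed features. At own rows of the wider list (2, 3 and 3 called), the test against 1.5-fold gave 0 in each comparison, and leaving out each library gave 1 to 3, 2 to 4 and 1 to 4. Without the 3 libraries rich in mitochondrial ribosomal RNA, an alternative chosen after seeing the data, the first comparison gave 2 for the 15 genes and 2 for the wider list at opposite features, and the last gave 1 for the wider list at own rows. Over all 14911 features (425, 710 and 433 called), no fold minimum gave 655 in the first comparison and the test against 1.5-fold gave 100, 157 and 102. Over all genes at opposite features (188, 280 and 165 called), the same settings gave 340, 516 and 271, and 55, 70 and 39, and noncoding features only gave 116, 148 and 81. The setting of noncoding features only leaves out every gene whose qualifying features are all coding, among them SRPRB and PREB, so its counts come from fewer genes. The cause of the other changes was not tested.

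No pairing by replicate number was seen, as same-numbered libraries of different groups had correlations of -0.0237 to 0.054 in their deviations from group means. These were taken over all tested features, where a weak shared effect could be missed, so they do not establish that the libraries were unpaired. The replicate block gave 2 calls for the 15 genes in the first comparison, with PREB added, and 5 at own rows in the second, with SPCS3 and SEC24C added. Of the 43 own rows tested, 28 averaged under 20 reads per library, and the effect of depth on their calls was not tested.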
